A study of Mus musculus with 7 samples.

Results

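Heat shock chaperones of the cytosol and the mitochondria are described here at transcript level in LT-HSCs, the long-lived haematopoietic stem cells of the bone marrow from which all blood cells descend. The set was chosen by gene name and holds 46 of the 53458 genes to which reads were assigned. It covers the HSP70 and HSP110 proteins, the HSP90 proteins, their cofactors, the chaperonins, 1 small heat shock protein and the transcription factors that control many of these genes. Of the 46 members, 12 are classed as heat-inducible because they are textbook targets of heat shock factors, 28 as constitutive and 6 as neither. RNA was sequenced from 3 Srp72+/- mice and 4 WT mice (genotype Srp72+/+) of the strain C57/BL6, all aged, with 1 library from each animal. The sorted cells lacked the lineage antigens Ter119, B220, CD3, Mac1 and Gr1 as well as Flt3 and CD48, and they carried Sca1, cKit and CD150. Srp72 encodes a subunit of the signal recognition particle, which takes ribosomes that make secreted proteins to the endoplasmic reticulum, and the comparison asks what the loss of 1 copy does to the transcripts of aged LT-HSCs. The sources used here give neither the altered part of Srp72 nor the exact age of the mice.

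Chaperones bind unfolded stretches of proteins and release them in cycles of ATP binding and hydrolysis. HSP70 proteins receive their clients from J proteins and pass some of them on to HSP90, while the ring-shaped chaperonins enclose a protein while it folds. When unfolded proteins accumulate, the transcription factor HSF1 is freed from chaperones, forms trimers and binds repeated heat shock elements in the promoters of the inducible genes. Haematopoietic stem cells are known for a low rate of protein synthesis and for sensitivity to a disturbed protein balance.

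The libraries held between 18054322 and 35247472 estimated reads, the largest being Srp72+/- 3, and the members took between 0.453% and 0.593% of them. Levels are given as CPM, reads scaled to libraries of equal size. Srp72 itself measured 71.9, 45.7 and 109.8 CPM in Srp72+/- 1 to 3, against 99.6, 136.6, 103.0 and 88.4 CPM in WT 1 to 4 (log2 fold change -0.50, standard error 0.32, unadjusted p = 0.159 in edgeR). Srp72+/- 3 exceeded 3 of the 4 WT values, so the genotypes overlapped. The LT-HSC label was checked with 20 stem cell identity genes, whose summed level was 2026, 3075 and 3069 CPM in Srp72+/- 1 to 3. It was 3867, 338, 3060 and 3602 CPM in WT 1 to 4, so WT 2 stood apart from the other 6 libraries, although none of the 20 genes was at exactly 0 in it. Its lowest were Procr and Tcf15, at 0.064 CPM each, under the 0.192 CPM that 3 reads make in WT 2. Neutrophil markers (12 genes) summed to 12736, 5472 and 1205 CPM in Srp72+/- 1 to 3 and to 125, 40429, 8914 and 2926 CPM in WT 1 to 4. Erythroid markers (11 genes) summed to 6576, 1215 and 273 CPM in Srp72+/- 1 to 3 and to 154, 8884, 173 and 367 CPM in WT 1 to 4. WT 2 and Srp72+/- 1 were thus the libraries with the most neutrophil and erythroid transcripts. They were also highest for B cell markers (12 genes), at 10644 and 4427 CPM, where no other library exceeded 1336 CPM. For macrophage and monocyte markers (10 genes) they were at 712 and 253 CPM, where no other library exceeded 112 CPM. Megakaryocyte markers (10 genes) had another order, with sums of 352, 520.1 and 1215 CPM in Srp72+/- 1 to 3 and 639.7, 38.4, 345 and 611 CPM in WT 1 to 4, so Srp72+/- 3 was highest. In such bulk samples, fewer cells of a type and less RNA per cell cannot be told apart. The part of these markers in the chaperone values was not tested.

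No chaperone gene passed the test between the genotypes. With edgeR's quasi-likelihood test and Benjamini-Hochberg adjustment over all genes, 0 of 45 tested members passed a false discovery rate (FDR) of 0.05, as did 0 of 20314 genes in all, a share of 0%. At an unadjusted p below 0.05 there were 0 members, against 365 genes or 1.8% of those tested. DESeq2 called 9 genes, or 0.0443%, and 0 members. In it 1 member (Hspa1b, unadjusted p = 0.0382) had an unadjusted p below 0.05, against 2.72% of all genes. The smallest unadjusted p among members in edgeR was 0.132, and the adjusted p of every member was 0.9998. The remaining member, Hspb1, had too few reads to be tested.

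The direction of the fitted values was uneven but depended on single libraries. The fitted value in Srp72+/- was lower for 33 of 45 tested members and higher for 12, while it was lower for 50.7% of all tested genes. The median log2 fold change was -0.12 over the members and -0.01 over all genes. Over the members it was -0.33 without Srp72+/- 3, with 39 of 45 lower, and -0.06 without Srp72+/- 2, with 25 of 45 lower. Without WT 2 it was -0.08, with 29 lower, and without WT 2 and Srp72+/- 1 it was -0.05, with 28 lower. In the same order, the median over all genes was -0.05, -0.04, 0.04 and 0.02, with 54.1%, 53.3%, 46.9% and 48.7% lower. Without WT 2 the medians of the members and of all genes thus rose together. In CPM the groups did not overlap for 1 member, the J protein gene Dnajc7, against 3.57% of all genes, and 1.49% with Srp72+/- lower. For 33 of 45 members the 95% interval of the fold change lay within 2-fold in either direction, and for the other 12 it reached beyond. A count of 0 calls with 3 and 4 animals does not show that these transcripts were equal in the genotypes.

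**Figure D1:**
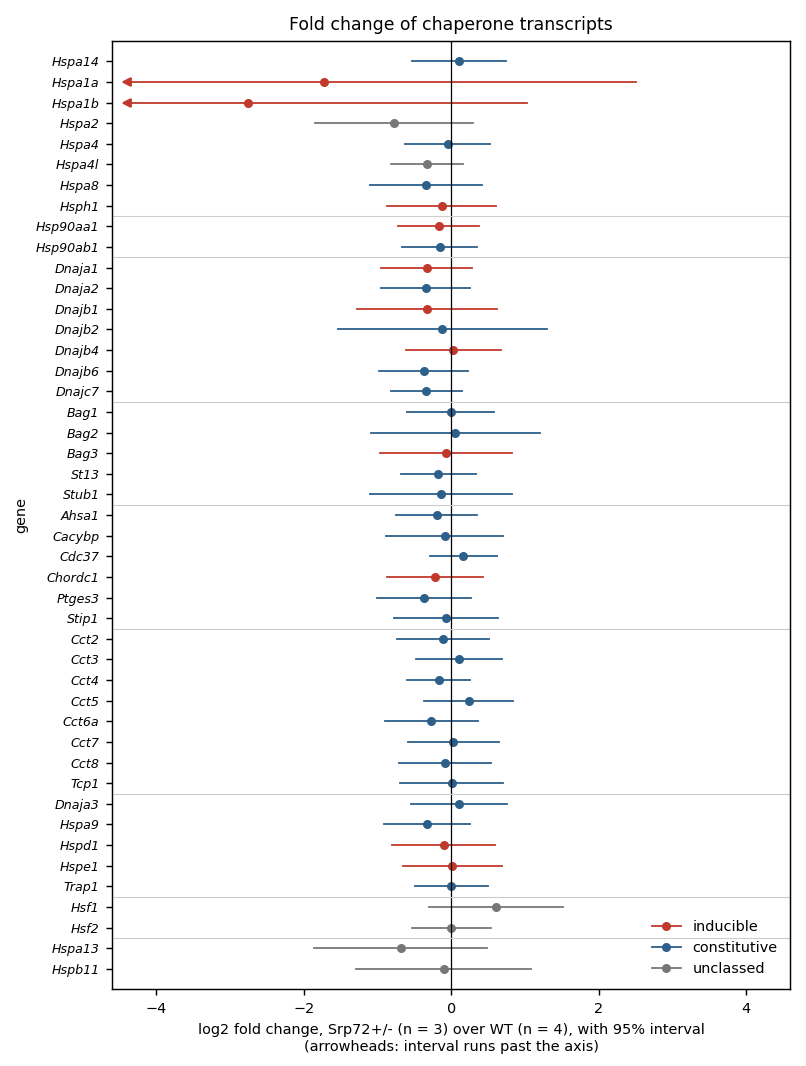
Log2 fold change of each tested chaperone gene, Srp72+/- (n = 3) over WT (n = 4), with its 95% interval, grouped by role from the HSP70 proteins at the top to the 2 other members at the bottom. All 45 intervals cross 0. Those of Hspa1a and Hspa1b run from below -5 to above 1 and are cut at the left edge, where arrowheads mark that they continue.

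The summed level of all 46 members was 4444, 3992 and 6336 CPM in Srp72+/- 1 to 3, against 5052, 6417, 5514 and 5499 CPM in WT 1 to 4. The means were 4924 ± 1243 CPM in Srp72+/- (SD, n = 3) and 5621 ± 573 CPM in WT (SD, n = 4). Srp72+/- 1 and 2 lay below every WT library, and Srp72+/- 3 lay above all of them but WT 2. The spread within the Srp72+/- group was thus larger than the difference between the group means. Srp72+/- 2 was the lowest library for 19 of 45 tested members, where it was lowest for 10.05% of all genes. Srp72+/- 3 was the highest library for 19 of 45, against 18.6% of all genes, and WT 2 for 11 of 45, against 22.8% of all genes. WT 3 was the highest for 6 of 45, near its share of 11.9% of all genes. Srp72+/- 3 was also the library with the highest megakaryocyte sum, and the part of that in its chaperone levels was not tested.

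**Figure D2:**
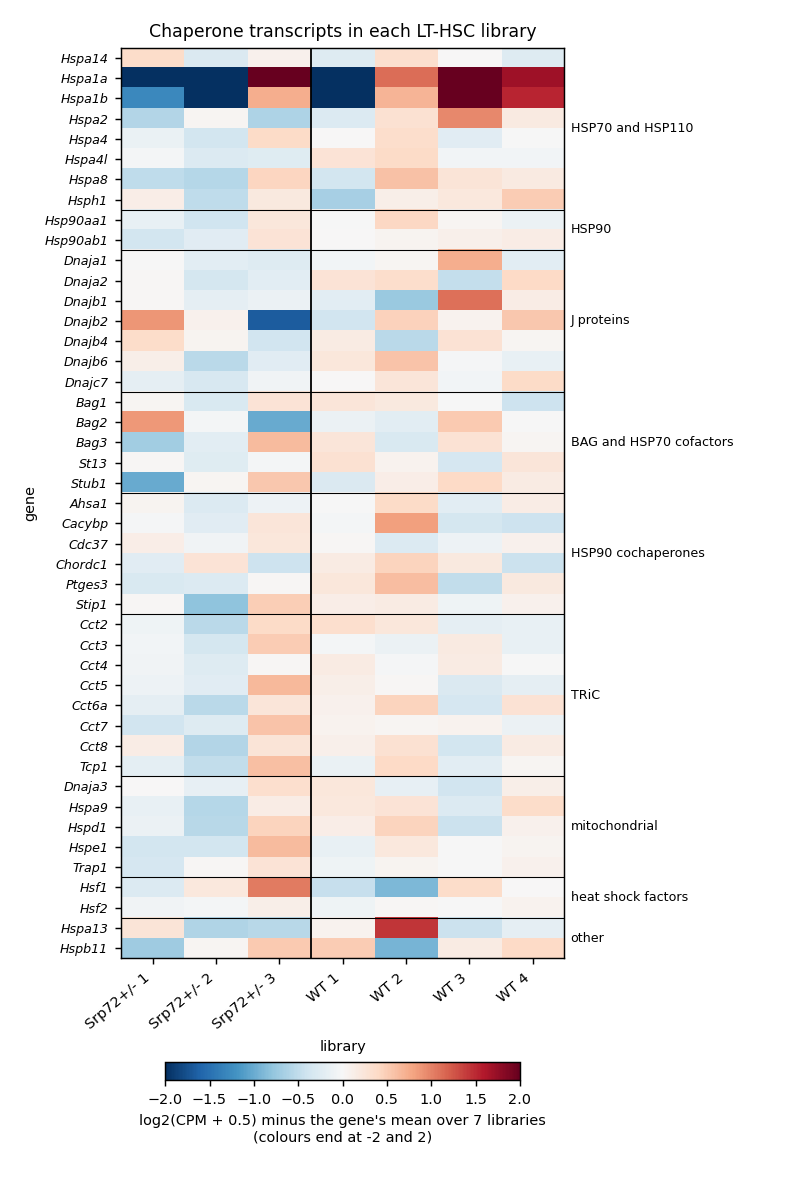
Level of the 45 tested members in each library as log2(CPM + 0.5) minus the gene's mean over the 7 libraries, with Srp72+/- libraries left of WT libraries and genes grouped by role. The column of Srp72+/- 2 is mostly blue (low), that of Srp72+/- 3 mostly red (high), and the widest range belongs to Hspa1a and Hspa1b.

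Per length, the constitutive chaperones Hspa8 and Hsp90ab1 led the members with protein-coding transcripts, which are 45 of the 46 (Cct6a has none in the annotation). Levels between genes are compared as TPM, which divides reads by transcript length, summed over protein-coding transcripts. Hspa8 averaged 165 ± 46.6 TPM in Srp72+/- and 184 ± 39.7 TPM in WT. Hsp90ab1 averaged 136 ± 19.4 TPM in Srp72+/- and 136 ± 31.2 TPM in WT. The ranges of these neighbours overlapped, but Hspa8 was the higher of the pair in every library. The gap was small in Srp72+/- 2 (154.3 against 153.2 TPM) and in WT 1 (139.3 against 138.0 TPM). Cct2, Hsp90aa1, Dnajb6, Cct7 and Hspe1 followed with means over the 7 libraries between 86.9 and 50.3 TPM. Hsf2, Hspa2 and Hspb1 were lowest, at 1.57, 0.98 and 0.24 TPM. The order depends on the measure and on how the authors' tool divided reads between transcripts. Over all transcripts, short non-coding ones included, the highest means were 672.5 TPM for Hspa8, 235 TPM for Hsp90aa1, 157 TPM for Cct6a and 155 TPM for Hsp90ab1. In reads, Hspa8, Hsp90ab1 and Hsp90aa1 together made up 43.0%, 46.8% and 49.8% of the members' level in Srp72+/- 1 to 3 and 44.2%, 50.8%, 50.7% and 48.9% in WT 1 to 4.

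**Figure D3:**
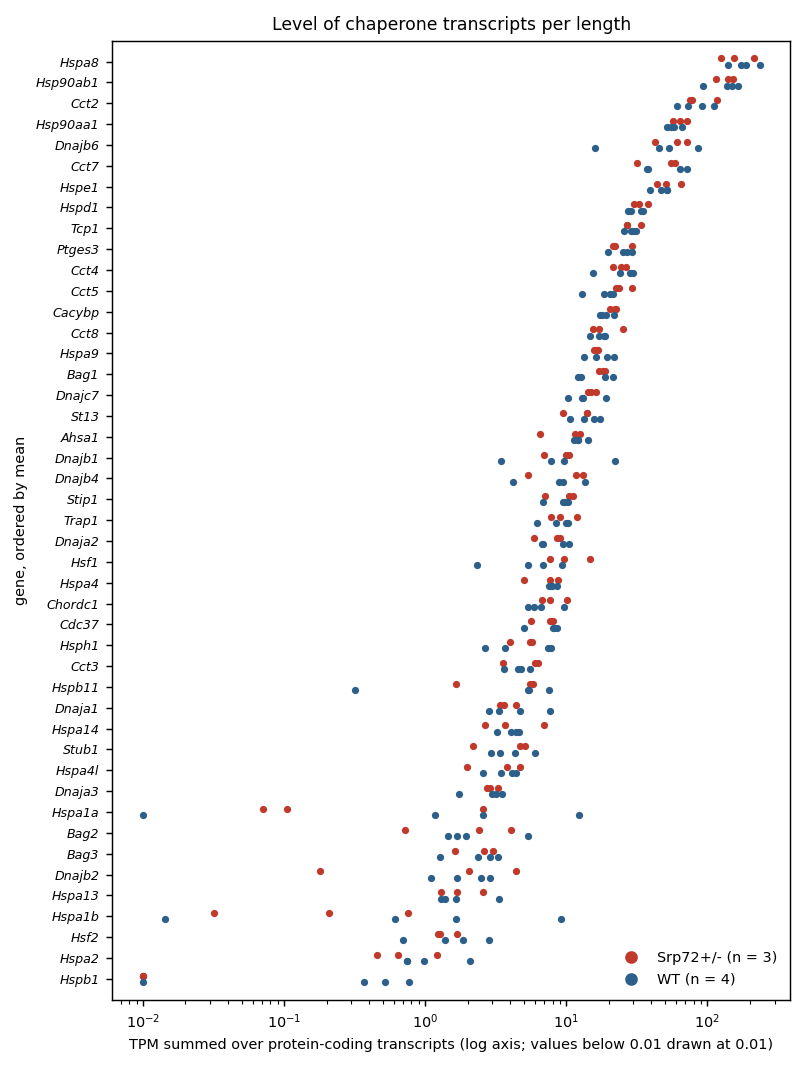
Level per length of 45 members in each library, as TPM summed over protein-coding transcripts on a log axis, with Srp72+/- libraries in red and WT libraries in blue, ordered by the mean. Hspa8 lies between 124 and 235 TPM, most members lie between 1 and 100 TPM, and Hspa1a, Hspa1b and Hspb1 reach down to 0 or close to it.

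The promoters of the inducible members held more heat shock element letters than those of the constitutive ones. The inducible class was chosen as textbook targets of heat shock factors, so this contrast follows from the choice and supports nothing further. Windows from 250 bases before to 50 bases after the start of a gene (RefSeq, GRCm38.p6) were at hand for 38 of the 46 members. The letters sought were GAANNTTC and TTCNNGAA, 2 inverted units of the element in which N is any base. Each equals its own reverse complement, so that a search of 1 strand covers both, and a gene counts once however many matches overlap. They occurred in 10 of 11 inducible members (90.9%), 6 of 23 constitutive members (26.1%) and 0 of 4 unclassed members, and in 4587 of 27025 genes of the table (17.0%). Dnajb1 was the inducible member without them. Hspa1a and Hspa1b have near-identical windows, and Hspd1 and Hspe1 share most of theirs, so the 10 are not all separate. Some genes had several windows, with 17 for the 11 inducible and 28 for the 23 constitutive members. Runs of at least 3 units (those that hold GAANNTTCNNGAA or its reverse complement TTCNNGAANNTTC) occurred in Hspd1, Hspe1, Hsph1 and Chordc1 among the inducible members and in Dnajb6 among the constitutive ones, against 0.662% of all genes. A match describes the letters only and is not a measured binding site.

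The stretches below show these letters, in capitals, for the inducible genes whose values vary most between libraries (Hspa1a, Hspa1b and Hspb1) and for 3 genes with runs of at least 3 units that vary far less (Hspe1, Hsph1 and Chordc1). Hspa1a (chr17:34972157-34972276, minus strand), Hspa1b (chr17:34959239-34959358, minus strand) and Hspe1 (chr1:55088028-55088147, plus strand) are shown over the 120 bases before their start. Hsph1 (chr5:149636286-149636375, minus strand) and Chordc1 (chr9:18292207-18292296, plus strand) run from 60 bases before to 30 bases after the start, and Hspb1 (chr5:135887789-135887878, plus strand) covers 90 bases that begin 130 bases before it.
Hspa1a: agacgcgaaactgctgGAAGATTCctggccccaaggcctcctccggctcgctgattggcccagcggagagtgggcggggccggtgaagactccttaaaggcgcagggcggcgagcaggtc
Hspa1b: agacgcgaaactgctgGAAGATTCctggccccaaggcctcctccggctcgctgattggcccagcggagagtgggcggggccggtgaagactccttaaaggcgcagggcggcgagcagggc
Hspe1: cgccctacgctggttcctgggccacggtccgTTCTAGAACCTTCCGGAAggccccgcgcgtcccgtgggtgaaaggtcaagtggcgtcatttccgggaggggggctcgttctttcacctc
Hsph1: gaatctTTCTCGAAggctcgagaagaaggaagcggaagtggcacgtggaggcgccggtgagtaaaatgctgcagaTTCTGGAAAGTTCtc
Chordc1: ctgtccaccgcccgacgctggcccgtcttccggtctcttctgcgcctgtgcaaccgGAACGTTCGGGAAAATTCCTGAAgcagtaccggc
Hspb1: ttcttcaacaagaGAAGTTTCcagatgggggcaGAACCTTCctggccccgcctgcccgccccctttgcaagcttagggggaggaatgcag
The Hspa1a and Hspa1b stretches are identical at 119 of 120 bases, and their whole windows at 296 of 300. The windows of Hspe1 and its neighbour Hspd1, which are read in opposite directions, share 285 bases, so the run shown for Hspe1 also lies in the window of Hspd1.

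Among the HSP70 and HSP110 genes the fitted value in Srp72+/- was lower for 7 of 8 and higher for 1 (median log2 fold change -0.34), and 0 passed the test. Hspa1a and Hspa1b are neighbouring copies of the stress-inducible HSP70 on chromosome 17 (34969190 to 34972156 and 34956436 to 34959238, minus strand, GRCm38). Hspa1a measured 0.635, 0.357 and 21.7 CPM in Srp72+/- 1 to 3, against 0, 11.7, 71.4 and 17.7 CPM in WT 1 to 4. Hspa1b measured 1.11, 0.134 and 5.97 CPM in Srp72+/- 1 to 3, against 0.112, 5.76, 49.4 and 10.8 CPM in WT 1 to 4. WT 1, Srp72+/- 1 and Srp72+/- 2 were near 0 for both genes, WT 3 was far above the rest, and the groups overlapped. The log2 fold change was -1.73 for Hspa1a (95% interval -5.97 to 2.51, unadjusted p = 0.376) and -2.76 for Hspa1b (95% interval -6.55 to 1.02, unadjusted p = 0.132). Without WT 3 it was -0.39 for Hspa1a and -1.22 for Hspa1b. Without Srp72+/- 3 it was -5.66 for Hspa1a (unadjusted p = 0.0488, adjusted p = 0.99995) and -4.74 for Hspa1b (unadjusted p = 0.0659), and without WT 1 it was -3.18 for Hspa1b (unadjusted p = 0.0454, adjusted p = 0.9998).

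The reads of the pair cannot be divided with certainty, since 63.8% of the 31-base words of the Hspa1a transcript also occur in the Hspa1b transcript. Their sum was 1.75, 0.491 and 27.7 CPM in Srp72+/- 1 to 3, against 0.112, 17.5, 120.8 and 28.5 CPM in WT 1 to 4. Srp72+/- 3 thus lay above WT 1 and WT 2, and WT 1 lay below all Srp72+/- libraries. On the log2(CPM + 0.5) scale the Srp72+/- mean lay below the WT mean by a difference of -1.82 (two-sided exact permutation test, p = 0.457, and the smallest p that 35 arrangements of the labels can give is 0.0286). Leaving out WT 3 brought this difference to -0.78, and leaving out WT 2 and WT 3 brought it to -0.09, while it was -3.33 without WT 1 and -3.23 without Srp72+/- 3.

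Hspa8 (chromosome 9, 40800984 to 40810087, plus strand), the constitutive HSP70 of all cells, measured 824, 790.2 and 1573 CPM in Srp72+/- 1 to 3, against 911, 1751, 1399.7 and 1321 CPM in WT 1 to 4. Srp72+/- 1, Srp72+/- 2 and WT 1 were low and the other 4 libraries high, in both genotypes. The fold change was 0.789 (95% interval 0.466 to 1.34, unadjusted p = 0.334). Without Srp72+/- 3 the log2 fold change was -0.75 (unadjusted p = 0.0389, adjusted p = 0.99995), and without WT 2 and Srp72+/- 1 it was -0.03.

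Hsph1, the inducible HSP110 that exchanges the nucleotide of HSP70, measured 47.9, 30.8 and 50.3 CPM in Srp72+/- 1 to 3, against 27.5, 47.4, 50.8 and 62.4 CPM in WT 1 to 4. Its lowest library was WT 1 and its groups overlapped (log2 fold change -0.13, unadjusted p = 0.701). Its promoter stretch, shown above, holds a run of 3 heat shock units just after the start. The related exchange factors Hspa4 and Hspa4l had log2 fold changes of -0.05 and -0.33. Hspa4l averaged 57.3 ± 4.92 CPM in Srp72+/- and 72.1 ± 11.6 CPM in WT, with Srp72+/- 1 just above the lowest WT libraries. Hspa2, best known from sperm development, was at 3.93 ± 1.20 CPM in Srp72+/- and 6.75 ± 2.65 CPM in WT (log2 fold change -0.78, unadjusted p = 0.132). Hspa14, a ribosome-associated HSP70, was the member of this group with a higher fitted value (29.0 ± 6.61 CPM in Srp72+/- and 27.0 ± 5.62 CPM in WT).

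Both cytosolic HSP90 genes had fold changes close to 1. Hsp90aa1, the inducible form (chromosome 12, 110690605 to 110702728, minus strand), measured 450.0, 377 and 581 CPM in Srp72+/- 1 to 3, against 491, 658, 510.3 and 457 CPM in WT 1 to 4. Hsp90ab1, the constitutive form (chromosome 17, 45567775 to 45573271, minus strand), measured 636, 702 and 999.9 CPM in Srp72+/- 1 to 3, against 829.5, 853, 887 and 912 CPM in WT 1 to 4. For both, Srp72+/- 1 or 2 was lowest and the groups overlapped. The fold changes were 0.887 for Hsp90aa1 (95% interval 0.608 to 1.29) and 0.895 for Hsp90ab1 (95% interval 0.629 to 1.28). As log2 fold changes these are -0.17 and -0.16, and they were -0.02 and -0.04 without WT 2 and Srp72+/- 1. With 1 library left out, they ranged from -0.36 to -0.05 for Hsp90aa1 and from -0.39 to -0.05 for Hsp90ab1. Both were lowest without Srp72+/- 3. The ratio of the inducible to the constitutive form was 0.707, 0.537 and 0.581 in Srp72+/- 1 to 3 and 0.592, 0.771, 0.575 and 0.501 in WT 1 to 4, with means of 0.608 ± 0.088 in Srp72+/- and 0.610 ± 0.115 in WT.

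Of 7 cytosolic J protein genes, whose products bring clients to HSP70 and trigger its ATPase, 6 had lower and 1 had a higher fitted value in Srp72+/- (median log2 fold change -0.33), and 0 passed the test. Dnajc7 (chromosome 11, 100582818 to 100620168, minus strand), whose product links HSP70 and HSP90, measured 49.9, 45.3 and 53.9 CPM in Srp72+/- 1 to 3, against 56.7, 66.7, 54.2 and 74.0 CPM in WT 1 to 4. In CPM every Srp72+/- library lay below every WT library, though Srp72+/- 3 and WT 3 lay next to each other. In TPM its groups overlapped, over protein-coding and over all transcripts. The protein-coding means were 15.1 ± 0.96 TPM in Srp72+/- and 13.9 ± 3.76 TPM in WT. The fold change was 0.791 (95% interval 0.566 to 1.10, unadjusted p = 0.145), and leaving out 1 library at a time kept the log2 fold change between -0.42 and -0.28.

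Dnajb1, the main inducible partner of HSP70, measured 63.0, 54.7 and 57.3 CPM in Srp72+/- 1 to 3, against 53.5, 36.8, 134.7 and 68.7 CPM in WT 1 to 4. Dnaja1 measured 109.0, 95.1 and 91.6 CPM in Srp72+/- 1 to 3, against 106, 113, 183 and 94.7 CPM in WT 1 to 4. In both genes WT 3 alone stood above the other libraries, among which the genotypes overlapped. The log2 fold change of Dnajb1 was -0.33 with all libraries, 0.12 without WT 3, -0.55 without WT 2 and -0.61 without WT 2 and Srp72+/- 1. That of Dnaja1 was -0.33 with all libraries, -0.11 without WT 3 and -0.46 without WT 4. Dnaja2 and Dnajb6, a suppressor of protein aggregation, had log2 fold changes of -0.35 and -0.38, and without WT 3 Dnaja2 had -0.54 (unadjusted p = 0.0473, adjusted p = 0.9998). Dnajb2 and Dnajb4 had -0.12 and 0.03, and Dnajb2 ranged 7.09-fold over the libraries.

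For the BAG proteins and other cofactors of HSP70 the fitted value in Srp72+/- was lower for 4 of 5, the median log2 fold change was -0.07, and 0 passed the test. Bag3, an inducible gene whose product steers damaged proteins to autophagy, measured 8.05, 11.5 and 20.9 CPM in Srp72+/- 1 to 3, against 15.8, 10.7, 16.4 and 13.7 CPM in WT 1 to 4. All WT values lay within the Srp72+/- range (log2 fold change -0.07, unadjusted p = 0.862). St13, which stabilises the client-bound form of HSP70, measured 76.1, 63.5 and 73.0 CPM in Srp72+/- 1 to 3, against 92.7, 78.7, 59.7 and 88.7 CPM in WT 1 to 4. WT 3 was the lowest library for St13, and the other 3 WT libraries lay above all Srp72+/- libraries (log2 fold change -0.17, unadjusted p = 0.459). Bag1 and Bag2 had log2 fold changes of -0.01 and 0.05, and Stub1, which encodes the ubiquitin ligase CHIP, had -0.14.

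Of 6 genes for partners of HSP90, 5 had lower and 1 had a higher fitted value (median log2 fold change -0.14). Ptges3, which encodes p23, measured 80.8, 83.0 and 101.8 CPM in Srp72+/- 1 to 3, against 117, 153, 71.2 and 114 CPM in WT 1 to 4. WT 3 was lowest and the remaining WT libraries lay above all Srp72+/- libraries (log2 fold change -0.37, unadjusted p = 0.225). With 1 library left out, its log2 fold change ranged from -0.56 (without WT 3) to -0.19 (without WT 2). Without WT 2 and Srp72+/- 1 it was -0.13. Chordc1, the inducible member here, averaged 46.9 ± 12.4 CPM in Srp72+/- and 54.6 ± 13.1 CPM in WT. The log2 fold changes were -0.20 for Ahsa1 (which activates the HSP90 ATPase), -0.09 for Cacybp, -0.07 for Stip1 (the adaptor between HSP70 and HSP90) and 0.17 for Cdc37 (the adaptor for protein kinases).

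Of the 5 mitochondrial chaperone genes, 3 had lower and 2 had higher fitted values. Their median log2 fold change was -0.00087, and all 5 intervals lay within 2-fold. Hspa9, the mitochondrial HSP70 that pulls imported proteins into the matrix, measured 118, 88.4 and 146 CPM in Srp72+/- 1 to 3, against 152, 158, 109 and 169 CPM in WT 1 to 4 (log2 fold change -0.33, unadjusted p = 0.233). Hspd1, the HSP60 subunit, measured 176, 129 and 259 CPM in Srp72+/- 1 to 3, against 208, 258, 140.4 and 203 CPM in WT 1 to 4 (log2 fold change -0.10). In both genes Srp72+/- 2 and WT 3 were the lowest libraries of their groups, and the groups overlapped.

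Hspe1, the HSP10 lid of the HSP60 chamber, measured 51.8, 51.8 and 104 CPM in Srp72+/- 1 to 3, against 60.3, 77.4, 66.9 and 69.7 CPM in WT 1 to 4. Its WT values lay between the low Srp72+/- pair and Srp72+/- 3 (log2 fold change 0.02, standard error 0.29), and without WT 2 and Srp72+/- 1 the log2 fold change was 0.25. Hspd1 and Hspe1 lie back to back on chromosome 1 (55077835 to 55088243 on the minus strand and 55088132 to 55091307 on the plus strand), and the ratio of their CPM was 3.40, 2.49 and 2.48 in Srp72+/- 1 to 3 and 3.44, 3.34, 2.10 and 2.91 in WT 1 to 4. Trap1, the mitochondrial HSP90, measured 41.1, 52.8 and 62.5 CPM in Srp72+/- 1 to 3, against 48.6, 53.6, 51.3 and 55.3 CPM in WT 1 to 4, with means of 52.2 CPM in both groups. Dnaja3, the mitochondrial J protein, had a log2 fold change of 0.11.

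The cytosolic chaperonin TRiC is a double ring of 8 kinds of subunit that folds actin and tubulin, and all 8 of its genes were tested. The fitted value in Srp72+/- was higher for 4 and lower for 4, the median log2 fold change was -0.04, and all 8 intervals lay within 2-fold. Cct6a had the smallest p and measured 151, 118 and 204 CPM in Srp72+/- 1 to 3, against 182, 235, 136 and 209.6 CPM in WT 1 to 4 (log2 fold change -0.27, unadjusted p = 0.351). With 1 library left out, its log2 fold change ranged from -0.51 (without Srp72+/- 3) to -0.12 (without Srp72+/- 2). Without WT 2 it was -0.15, and without WT 2 and Srp72+/- 1 it was -0.13. Srp72+/- 2 and WT 3 were again the lowest libraries of their groups. The other subunits had log2 fold changes of -0.17 for Cct4, -0.11 for Cct2, -0.09 for Cct8, 0.01 for Tcp1, 0.03 for Cct7, 0.11 for Cct3 and 0.23 for Cct5. Their sum was 856, 690.4 and 1223 CPM in Srp72+/- 1 to 3, against 1001, 1083, 841 and 939 CPM in WT 1 to 4. The Srp72+/- group reached both below and above all WT libraries.

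Hsf1, the master regulator of the heat shock response (chromosome 15, 76477422 to 76501913, plus strand), measured 40.1, 56.3 and 101 CPM in Srp72+/- 1 to 3, against 35.2, 26.0, 62.5 and 49.1 CPM in WT 1 to 4. Srp72+/- 3 was highest and WT 2 lowest, and the other 5 libraries overlapped. The log2 fold change of 0.60 was the highest among the members (standard error 0.40, unadjusted p = 0.166). With 1 library left out, it ranged from 0.15 (without Srp72+/- 3) to 0.85 (without Srp72+/- 1). Hsf2, which can form mixed trimers with HSF1, was the steadiest member, at 19.8, 20.3 and 22.7 CPM in Srp72+/- 1 to 3, against 19.7, 21.2, 20.9 and 21.9 CPM in WT 1 to 4. WT 3, where Hspa1a, Hspa1b, Dnajb1 and Dnaja1 were highest, had the highest Hsf1 level of the WT libraries. Srp72+/- 3, where Hsf1 was highest, had the highest Hspa1a and Hspa1b of the Srp72+/- libraries, but not the highest Dnajb1 or Dnaja1. A link between the levels of Hsf1 and these genes was not tested.

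Hspb1, the small heat shock protein HSP27 of human cells, was at 0 in all 3 Srp72+/- libraries, where the floor of 3 reads equals between 0.091 and 0.159 CPM. In WT 1 to 4 it was at 0.504, 0, 0.959 and 0.809 CPM, or 8.8, 0, 20.3 and 17.7 estimated reads. WT 2, the library low in stem cell transcripts, was at 0 as well. The gene did not pass the filter on low counts in the comparison of all libraries. It can pass only through the WT libraries in which it is present, so no test of it is given. In WT 2 and the Srp72+/- libraries it was thus not detectable at this depth.

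The set also held 2 genes outside the cytosolic and mitochondrial chaperones in the strict sense. Hspa13, an HSP70 relative of the microsomal fraction, measured 23.9, 13.0 and 13.4 CPM in Srp72+/- 1 to 3, against 20.96, 54.6, 14.6 and 17.6 CPM in WT 1 to 4. WT 2 alone stood above the others, and without it the log2 fold change was -0.08, where it was -0.68 with all libraries (unadjusted p = 0.218). Without Srp72+/- 1 it was -1.05. Hspb11, whose product is a subunit of intraflagellar transport, was at 6.24 ± 2.74 CPM in Srp72+/- and 6.70 ± 2.64 CPM in WT.

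Heat-inducible and constitutive members did not pass the test in either class, and some inducible members were highest in WT 3. The fitted value in Srp72+/- was lower for 9 of 11 tested inducible members (median log2 fold change -0.17) and for 20 of 28 constitutive members (median -0.10). Over the same members, the medians without Srp72+/- 2 were -0.06 and -0.02, with 6 of 11 inducible members lower, and without Srp72+/- 3 they were -0.36 and -0.28. The median over all genes was -0.04 without Srp72+/- 2 and -0.05 without Srp72+/- 3. The mean log2 level of the inducible members minus that of the constitutive ones was -1.44, -1.42 and -0.93 in Srp72+/- 1 to 3, against -1.61, -1.18, -0.07 and -0.78 in WT 1 to 4. The group means of this difference were -1.26 ± 0.29 in Srp72+/- and -0.91 ± 0.65 in WT, and the groups overlapped. The difference was closest to 0 in WT 3. It gives every gene equal weight, also Hspa1a, Hspa1b and the untested Hspb1, which were near 0 in several libraries. As a share of the members' summed CPM, the inducible members took 23.4%, 22.1% and 20.2% in Srp72+/- 1 to 3. In WT 1 to 4 they took 21.7%, 20.8%, 24.8% and 20.1%, so by this measure WT 3 was close to Srp72+/- 1.

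In WT 3, 5 of 46 members were more than 2-fold above the median of the other libraries, on the log2(CPM + 0.5) scale, against 6.64% of all tested genes. They were the inducible genes Hspa1a, Hspa1b, Dnajb1 and Hspb1 (4 of 12) and the unclassed Hspa2, and 0 of 28 constitutive members were among them. Hspb1 was not a tested gene, and its ratio rests on a median of 0 CPM in the other libraries. At 0.504 CPM in WT 1 and 0.809 CPM in WT 4, it was not particular to WT 3. Hspa1a and Hspa1b are not separate cases, since their reads cannot be divided with certainty. The median log2 ratio of WT 3 to the other libraries was 0.31 over the inducible members, Hspb1 included. It was -0.18 over the constitutive members and -0.01 over all tested genes. The other inducible members of WT 3 were not all high, since Hspd1 was at 140.4 CPM, the lowest value of its group. WT 3 also had the highest level of 14 of 14 immediate early genes, against 11.9% of all tested genes. Such genes, Fos and Egr1 among them, are known to respond fast to many stimuli. Their sum was 1680, 2286 and 2166 CPM in Srp72+/- 1 to 3, against 1912, 787, 5758 and 1976 CPM in WT 1 to 4. The part of these genes in the inducible chaperone values was not tested. Without WT 2 and WT 3, the median of the inducible members was -0.07 and that of the constitutive members -0.09, against 0.05 over all genes.

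**Figure D4:**
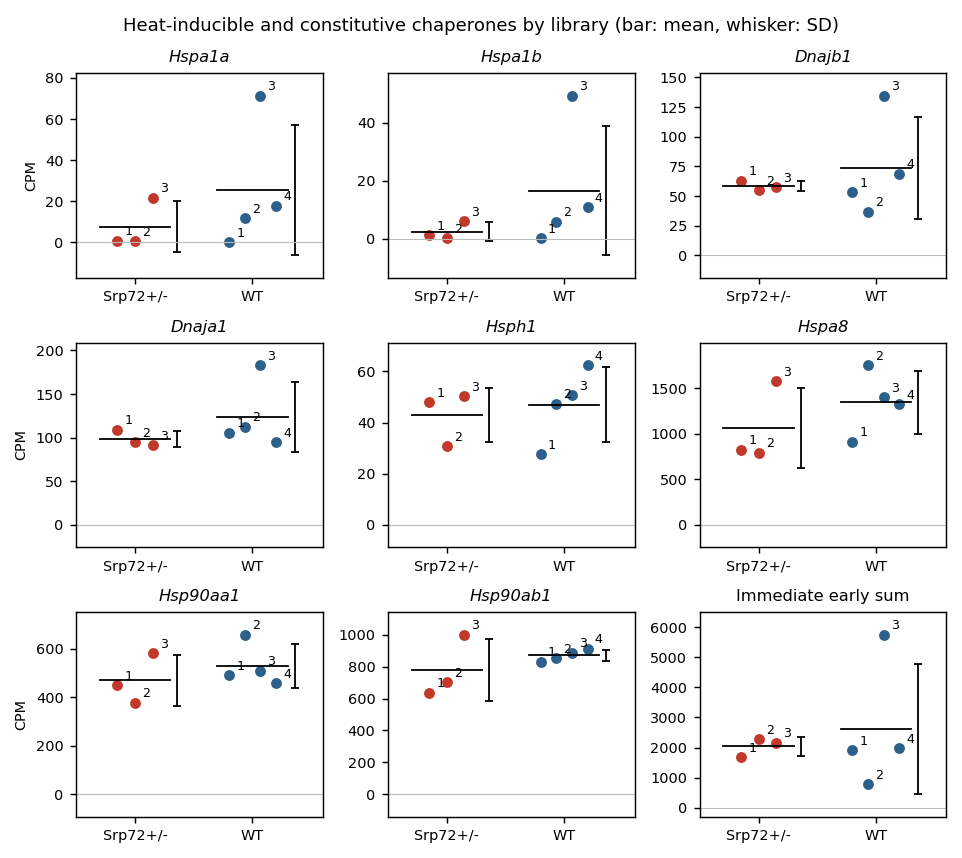
Level in CPM of 6 inducible chaperone genes (Hspa1a, Hspa1b, Dnajb1, Dnaja1, Hsph1 and Hsp90aa1), of the constitutive Hspa8 and Hsp90ab1, and of 14 immediate early genes summed, with 1 point per library numbered by replicate, Srp72+/- left of WT. Bars are means and whiskers SD, and WT 3 is the highest point for Hspa1a, Hspa1b, Dnajb1, Dnaja1 and the immediate early sum, but not for Hspa8, Hsp90aa1, Hsp90ab1 or Hsph1.

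The share of intron-retaining transcripts overlapped between the genotypes as well. Transcripts that retain an intron took 10.3%, 11.2% and 8.65% of the member reads in Srp72+/- 1 to 3, against 6.90%, 7.75%, 10.3% and 8.27% in WT 1 to 4. Over all protein-coding genes the shares were 11.2%, 12.1% and 9.62% in Srp72+/- 1 to 3, against 9.12%, 8.83%, 11.4% and 9.61% in WT 1 to 4, so the order of the libraries was similar. Of 8 members broken down by transcript type (Hspa8, Hsp90aa1, Hsp90ab1, Cct6a, Dnajb6, Hsf1, Hsph1 and Hspa14), Hspa14 had the widest range, with between 17.4% and 63.9% of its reads on such transcripts, and its highest libraries were Srp72+/- 2 at 63.9% and WT 3 at 57.9%. For Cct6a the annotation lists no protein-coding transcript, and its reads fell on transcripts annotated as processed or intron-retaining, so it has no coding TPM.

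Other folding factors outside the set were examined in the same comparison. Of 53 such genes (prefoldins, further J and BAG proteins, small heat shock proteins, cyclophilins and mitochondrial proteases), 48 were tested. The fitted value in Srp72+/- was higher for 17 and lower for 31 (median log2 fold change -0.06). Over all tested genes 50.7% were lower, with a median of -0.01. None of the 48 passed the FDR in edgeR, against 0% of all genes, and 0 had an unadjusted p below 0.05, against 1.8%. The smallest p belonged to Dnajb5, a J protein gene, at 1.33 ± 0.59 CPM in Srp72+/- and 5.52 ± 4.62 CPM in WT (log2 fold change -2.05, unadjusted p = 0.0532). Hspb6, a small heat shock protein gene, was at 10.5 ± 6.42 CPM in Srp72+/- and 4.96 ± 1.42 CPM in WT (1.09, unadjusted p = 0.0554). Pdcl, whose product assists TRiC, was at 9.81 ± 2.49 CPM in Srp72+/- and 17.6 ± 8.69 CPM in WT (-0.85, unadjusted p = 0.0960). Dnajb5 was highest in WT 3, at 11.6 CPM, and lowest in WT 2, at 0.576 CPM, so its groups overlapped.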

How the data were processed

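RNA of sorted LT-HSCs from 3 Srp72+/- and 4 WT mice was amplified (Ovation RNA-seq V2) before TruSeq V2 library construction, per the labels' protocols. The authors deposited 1 table per library with estimated counts per transcript (expected counts), TPM and effective lengths, made with Salmon 0.12.0 against mm10 and GRCm38.p6, per the submitters' processing notes. The sources used here do not give the transcript release, strand setting or bias options, and values of genes with an antisense partner are uncertain. Of 136288 transcripts, 112 without a match in GENCODE M21 were left out. Estimated counts were summed per gene and rounded. Genes passing filterByExpr (minimum count 10, minimum total 15) were scaled by TMM and tested by quasi-likelihood in edgeR 4.0.16 (limma 3.58.1, R 4.3.3; robust, no covariate, Benjamini-Hochberg threshold 0.05), and the pair Hspa1a and Hspa1b by exact permutation (two-sided) of log2(CPM + 0.5). Intervals are 95% intervals of the fit. Reads carry no molecular identifiers, so floors (3 reads) cover counting error only.

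The members, their classes and the lists were chosen with earlier results of these data known. Values in every library are given for 16 members named by function and for the member with the smallest p in each role group, and for the other folding factors the 3 smallest p are named. Alternatives were scaling by RLE or upper quartile, omission of the filter, a stricter filter, DESeq2 1.42.0, a transcript length offset, the replicate number as a block, the pair summed, other pseudocounts, and omission of libraries. The omission of WT 2 and WT 3 together was chosen after seeing the data. The procedure was tested on simulated data.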

Additional observations from a re-analysis of the deposited data

Results flagged for a closer look

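Among 60 values examined in the 4 WT libraries (each member and the summed groups), 3 had 1 library whose gap to its neighbour, divided by the range, exceeded Dixon's 95% critical value. Chance alone gives about 1 in 20. For Hspa13 the highest value, 54.6 CPM, belonged to WT 2, and the other WT libraries lay between 14.6 and 20.96 CPM. For Cct7 the lowest value, 67.1 CPM, belonged to WT 4, and the others lay between 75.4 and 76.7 CPM. The J protein genes summed to 574.4 CPM in WT 3, against 451.6 to 461.0 CPM in the other WT libraries, and to between 368 and 461 CPM in the Srp72+/- libraries.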

How the results depend on the processing

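In edgeR 0 members passed the FDR under every alternative, and 0 did in DESeq2. Over all genes the count past the FDR was 9 in DESeq2, and between 0 and 1 with any 1 library left out. Members with an unadjusted p below 0.05 numbered 1 in DESeq2 (Hspa1b), against 2.72% of all genes. They numbered 1 without a filter, against 2.76%, and 1 without WT 2 and Srp72+/- 1, against 4.03% (Hspb1 in both). With 1 library left out they numbered between 0 and 3, against 1.57% to 2.11% of all genes in the omissions with such a member. Hspb1 was among those of each Srp72+/- omission. It passes a filter only through the WT libraries that hold it and supports nothing here. With 1 library left out, the median log2 fold change ranged from -0.33 to -0.057 for tested members and from -0.049 to 0.036 for all genes. It ranged from -0.28 to -0.016 for constitutive and from -0.36 to -0.057 for the 11 tested inducible members. The difference of the Hspa1a and Hspa1b sum ranged from -3.33 to -0.78. Reversed values were -0.012 (Hspe1) and -0.027 (Hsf2) with RLE scaling, -0.012 (Hspe1) and -0.026 (Hsf2) with DESeq2, 0.025 (Trap1) with upper-quartile scaling, -0.0025 (Hsf2) without a filter, 0.0048 (Trap1) with the stricter filter, and 0.0034 (Hsp90aa1), -0.052 (Hspe1) and 0.17 (Trap1) with the length offset. Without WT 2 and Srp72+/- 1 they were 0.083 for Bag3, 0.082 for Hspd1 and 0.16 for Trap1, and without WT 2 and WT 3 Trap1 was at 0.0040. With 1 library left out, the ranges that crossed 0 were -0.54 to 0.18 (Bag3), -0.55 to 0.12 (Dnajb1), -0.068 to 0.023 (Hsf2), -0.42 to 0.086 (Hspd1), -0.41 to 0.17 (Hspe1), -0.32 to 0.047 (Hsph1) and -0.16 to 0.13 (Trap1). The causes were not tested. Same-numbered libraries did not deviate together (correlations -0.316, -0.162 and 0.00177), so no pairing by number was seen. So few libraries cannot exclude a pairing. The highest correlation, 0.395, was that of Srp72+/- 1 with WT 2, the libraries with the most neutrophil and erythroid transcripts. With the replicate number as a block (6 libraries), 0 genes and 0 members passed. The median of the members was then -0.19, against 0.0089 over all genes, and Hsph1 (0.030), Hspe1 (-0.078) and Hsf2 (-0.0013) changed sign. With 3 and 4 animals, intervals that reach beyond 2-fold remain for 12 of 45 members.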
